A study of Mus musculus with 14 samples.

Results

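The 10 genes described here set the pace of the G1 phase: the cyclin-dependent kinases Cdk2, Cdk4 and Cdk6, the cyclins Ccnd1 and Ccne1, the INK4 inhibitors Cdkn2a, Cdkn2b, Cdkn2c and Cdkn2d, and the CIP/KIP inhibitor Cdkn1b. They were matched by gene name among the 55335 genes of the count table, and all 10 were found. The set was chosen by the level of Cdk2, which was lower after CD45-targeted treatment than in untreated controls. Every value of the contrast between CD45-targeted treatment and untreated controls, and every value of Cdk2 in the CD45-targeted libraries, is therefore given as a description without a test. Of the 10 genes, 9 passed the filter on low counts. Cdkn2a did not, and Cdkn2b passed although it was at or under 3 counts in several libraries.

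In G1, D-type cyclins bind CDK4 and CDK6, and cyclin E binds CDK2. Both kinds of complex phosphorylate the retinoblastoma protein, which releases E2F transcription factors and lets cells enter S phase. INK4 proteins bind CDK4 and CDK6 and keep D-type cyclins off, while CIP/KIP proteins bind whole cyclin-CDK complexes and mainly hold CDK2. In bone marrow, CDK6 is prominent in blood stem and progenitor cells, and late erythroid precursors switch on INK4 inhibitors as they stop dividing.

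RNA was sequenced from 14 libraries of mouse bone marrow cells that were sorted by flow cytometry as negative for lineage markers and CD45 and positive for tdTomato. The labels call them endothelial cells. All mice, controls included, carried Cdh5 CRE and Rosa26 TdTomato, so the red reporter marks cells in which the promoter of Cdh5, the gene of VE-cadherin, was or had once been active; the labels do not state whether the Cre was inducible. Untreated mice gave 4 libraries. Total body irradiation (TBI) with 500 cGy from a cesium source gave 5, radioimmunotherapy (RIT, an antibody that carries a radionuclide) with a non-targeting IgG at 20 µCi gave 3, and CD45-targeted RIT at 20 µCi gave 2. Treated mice were harvested after 8 days. The series title names astatine-211 for the CD45-targeted agent. The labels give neither ages nor whether a library came from 1 mouse, so p-values measure the spread between these libraries.

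Total counts were 24787510 to 31077588 in untreated, 16412779 to 24941973 in TBI, 21657745 to 22924390 in IgG RIT and 23320156 to 26823379 in CD45 RIT libraries. The CD45 RIT libraries held counts for 20994 and 17700 genes, fewer than the 21660 to 26752 of all others, and their log2 levels correlated across genes at 0.673, against 0.906 to 0.979 within the other groups. The labelled cell type was not borne out by its defining gene: Cdh5 had 0 to 6 counts in untreated libraries, 0 to 5 after TBI and 0 after both kinds of RIT, and the text therefore speaks of sorted cells. Of 20 endothelial markers, Cdh5, Tek and Stab2 were at 0 in all IgG RIT libraries, and these 3 with Emcn and Tie1 in both CD45 RIT libraries. Other markers of that list, named after their values were seen, were high after CD45 RIT: Plvap reached 13.6 and 123 CPM against at most 12.7 CPM in untreated libraries, and Ramp2 27.0 and 64.0 CPM against at most 8.89 CPM. Kdr was at 0.0610 and 115 CPM against at most 2.43 CPM. Of the 15 endothelial markers tested, 5 were past the threshold as higher and 3 as lower in CD45 RIT against untreated. Over all genes this held for 14.5% as higher and 18.6% as lower. The list summed to 152 to 471 CPM against 133 to 166 CPM. The CD45 RIT libraries disagreed in Flt4, with 0 and 1306 counts, and in Esam, with 44 and 1004 counts. Pecam1 was at 26.8 to 65.3 counts per 1000000 of the scaled library size (CPM) in untreated, 3.16 to 28.4 CPM in TBI, 3.59 to 8.99 CPM in IgG RIT and 0.192 to 0.366 CPM in CD45 RIT libraries. Ptprc, the gene of CD45, was at 47.2 to 85.7, 5.10 to 48.3, 4.52 to 14.2 and 0.0610 to 31.9 CPM in the same order. In such bulk samples, fewer cells of a type and less RNA per cell cannot be told apart.

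Other cell types' markers moved with the groups. The 14 erythroid markers found of 15 listed summed to 9706 to 15393 CPM in untreated and 168985 to 192599 CPM in IgG RIT libraries; 4 of the TBI libraries ranged from 30218 to 45580 CPM while replicate 6 reached 224373 CPM. CD45 RIT replicate 1 had 280883 CPM of them and replicate 2 had 62093 CPM. The 14 stromal markers summed to 2742 to 6793 CPM in untreated, 891 to 1907 CPM in TBI, 456 to 1482 CPM in IgG RIT and 59087 to 79772 CPM in CD45 RIT libraries. The 12 general blood cell markers summed to 2377 to 2838, 574 to 1618, 503 to 784 and 178 to 329 CPM. A list of 16 proliferation genes, such as Mki67 and Pcna, summed to 4235 to 5784, 8126 to 13603, 13905 to 15414 and 599 to 3885 CPM. TBI replicate 6 stood with the IgG RIT libraries in erythroid level and is named wherever it carries a result. The part of these lists in the results below was not tested.

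**Figure D1:**
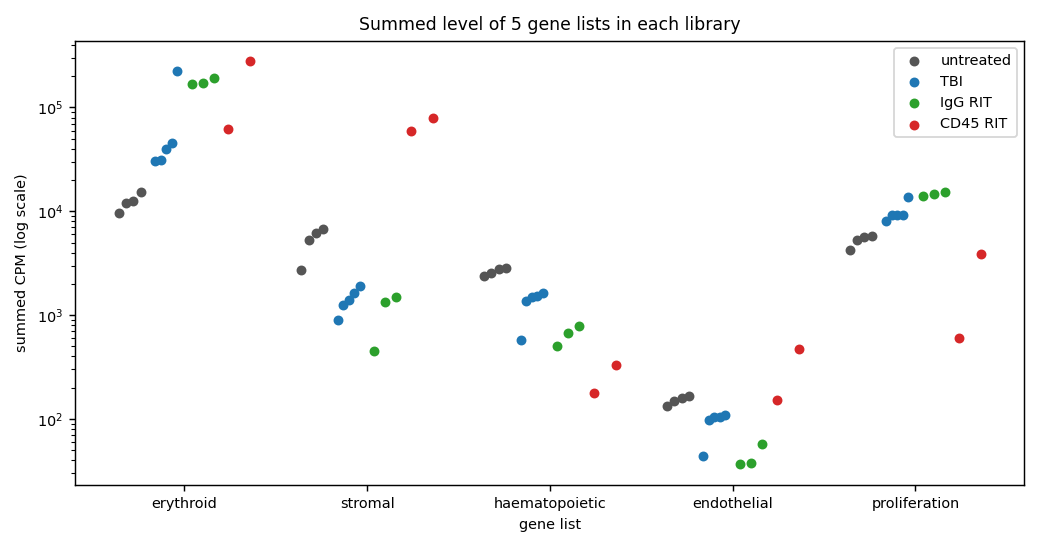
Summed level of 5 gene lists (erythroid, stromal, general haematopoietic, endothelial and proliferation genes) on a log axis in CPM, 1 point per library, coloured by group. Erythroid sums are 168985 to 192599 CPM in IgG RIT against 9706 to 15393 CPM in untreated libraries, and stromal sums reach 59087 to 79772 CPM only in the 2 CD45 RIT libraries.

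The promoters of 3 members are shown because their genes passed the test after IgG RIT, where Cdk2 and Cdkn2c rose and Cdk4 fell, and because a motif search, run first, found letters to point at. Each is the 250 bases before the RefSeq start on GRCm38.p6, written 5′ to 3′ on the gene's strand: Cdk2 on the minus strand at chr10:128705052-128705301, Cdkn2c on the minus strand at chr4:109666757-109667006, and Cdk4 on the plus strand at chr10:127063285-127063534. Capitals mark an E2F core (TTCCCGC or TTGGCGC) in Cdk2 and Cdkn2c and the E-box CACGTG, the element bound by MYC family proteins, in Cdk4.
Cdk2: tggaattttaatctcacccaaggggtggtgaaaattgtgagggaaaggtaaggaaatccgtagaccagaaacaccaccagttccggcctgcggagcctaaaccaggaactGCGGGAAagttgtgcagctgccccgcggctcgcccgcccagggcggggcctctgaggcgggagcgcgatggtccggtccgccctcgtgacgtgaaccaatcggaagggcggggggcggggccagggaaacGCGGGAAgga
Cdkn2c: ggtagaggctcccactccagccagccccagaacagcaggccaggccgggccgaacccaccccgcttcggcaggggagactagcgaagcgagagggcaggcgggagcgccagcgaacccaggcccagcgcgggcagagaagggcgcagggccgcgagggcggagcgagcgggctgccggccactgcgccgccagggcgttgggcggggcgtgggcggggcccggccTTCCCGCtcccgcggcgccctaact
Cdk4: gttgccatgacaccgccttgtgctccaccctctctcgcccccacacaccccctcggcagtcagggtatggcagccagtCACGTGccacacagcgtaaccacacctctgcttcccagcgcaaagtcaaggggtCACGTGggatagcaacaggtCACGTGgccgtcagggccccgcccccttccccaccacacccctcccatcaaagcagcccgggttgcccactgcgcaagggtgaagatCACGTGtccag
Motifs were searched on both strands, and no E2F core or E-box shown shares a base with another motif searched. RefSeq promoter windows were found for 9 of the 10 members, in 11 windows, and none for Ccnd1. The letters TTCCCGC occurred 2 times in the Cdk2 window, 1 time in the Cdkn2c window shown and 0 times in a second Cdkn2c window. They also occurred 1 time in a window of Cdkn2a, which was not detected, and 0 times in that of Cdkn2d. Of all 32851 promoter windows of this length, 3.8% held them. TTGGCGC was in no window of a member and in 2.0% of all. The Cdk4 window held CACGTG 4 times. The window of Cdk6, which also fell after IgG RIT and is not shown, held CACGTG 1 time. Of the 32851 windows, 6.0% held it at least 1 time and 7 windows at least 4 times. The GC box GGGCGG was found 5 times in the Cdk2 and 4 times in the Ccne1 window. Of all windows 32.7% held it at least 1 time and 4.09% at least 4 times. A match of letters is a description of the sequence and not evidence of binding.

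Levels can be compared between genes only per length. In untreated libraries, in CPM per kilobase of exon, Cdk4 was highest at 186 ± 14.1 (SD, n = 4), followed by Ccne1 at 60.9 ± 3.59 and Cdkn2d at 47.5 ± 13.2, whose libraries overlapped. Cdkn2c at 21.6 ± 5.20 and Cdk2 at 18.7 ± 1.31 CPM per kilobase also overlapped, and Cdk6 lay below both means at 13.1 ± 2.66. Ccnd1 at 1.92 ± 0.252 and Cdkn1b at 1.32 ± 0.298 CPM per kilobase were low, and Cdkn2b at 0.107 ± 0.142 and Cdkn2a at 0.00739 ± 0.0148 were close to 0. After IgG RIT the order was another: Cdkn2d led at 493 ± 68.5 CPM per kilobase (SD, n = 3), before Ccne1 at 175 ± 15.5, Cdkn2c at 104 ± 3.74 and Cdk4 at 84.4 ± 3.73.

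**Figure D2:**
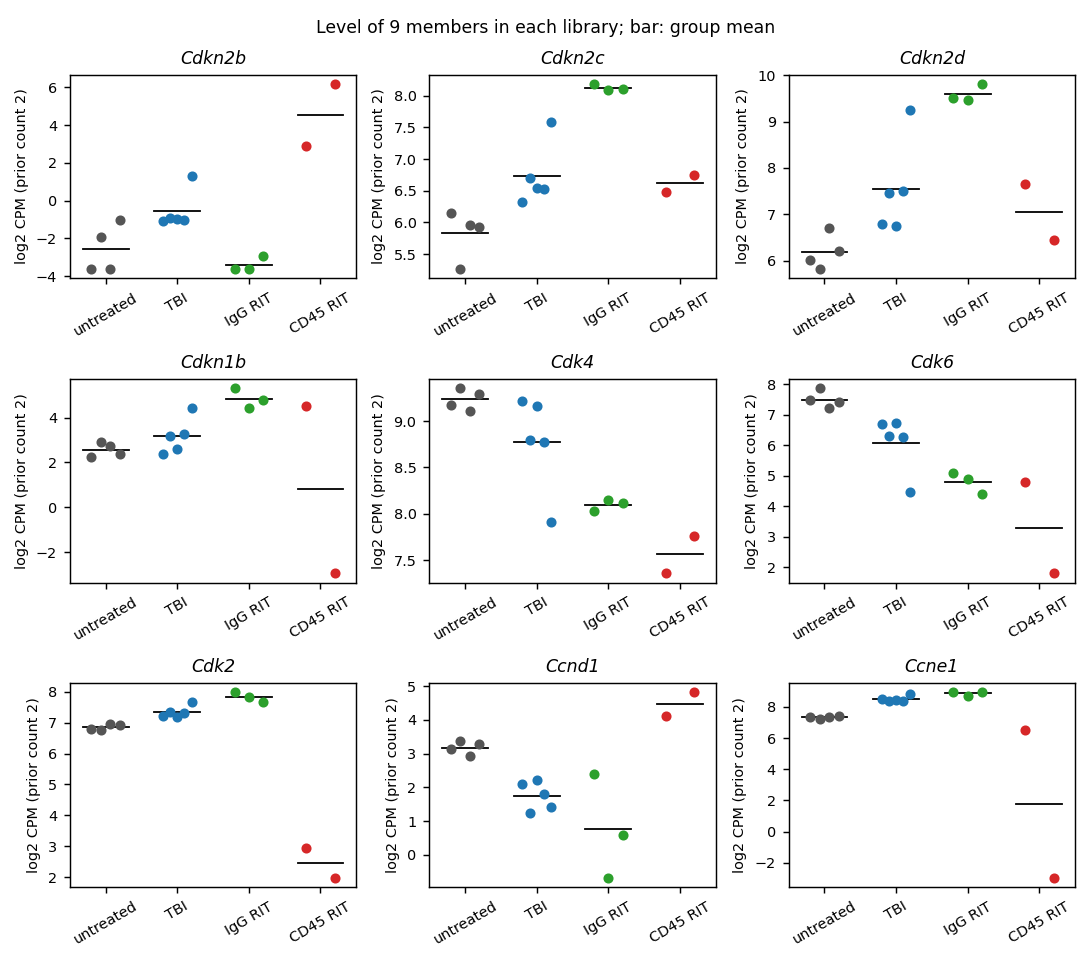
Level of 9 members in each of the 14 libraries as log2 CPM with a prior count of 2, 1 panel per gene with its own axis, points for libraries and a bar for the group mean. Cdk2 is at 3.90 and 7.68 CPM in the CD45 RIT libraries against 108 to 253 CPM in all others. Of the TBI libraries, replicate 6 lies nearest the IgG RIT libraries in the panels of Cdkn2c, Cdkn2d, Cdkn1b, Cdk4, Cdk6, Cdk2 and Ccne1.

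Among the kinases, Cdk2 (ENSMUSG00000025358.16, GRCm38 chromosome 10, 128697939 to 128705031), the partner of cyclins E and A, was at 111, 108, 125 and 121 CPM in untreated replicates 1 to 4. It was at 148, 162, 146, 158 and 204 CPM in TBI replicates 1, 3, 4, 5 and 6, at 253, 226 and 205 CPM in IgG RIT replicates 1 to 3 and at 7.68 and 3.90 CPM, or 126 and 81 counts, in CD45 RIT replicates 1 and 2. On this scale its groups did not overlap and were ordered IgG RIT, TBI, untreated, CD45 RIT. IgG RIT and TBI nearly touched, with 204.8 CPM in IgG RIT replicate 3 and 204.2 CPM in TBI replicate 6. The log2 fold change on which the set was chosen, CD45 RIT against untreated, was -4.33 (SE 0.31), a 20.1-fold lower level; the same CD45 RIT libraries gave -5.30 against IgG RIT and -4.82 against TBI. In the treatments not used in the choice, Cdk2 was higher.

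Cdk4 (ENSMUSG00000006728.12, chromosome 10, 127063534 to 127067920), the main partner of D-type cyclins here by level, was at 579, 655, 553 and 625 CPM in untreated libraries. In TBI it was at 594, 444, 572, 439 and 241 CPM, in IgG RIT at 261, 284 and 278 CPM, and in CD45 RIT at 164 and 218 CPM. IgG RIT and CD45 RIT libraries lay below all untreated ones, and TBI overlapped with untreated. Its exons share 641 bases, 19.7% of their length, with Tspan31 on the other strand. Tspan31 had 2798 to 4490 counts in CD45 RIT libraries, where Cdk4 had 2688 to 4521, so without a stated strand setting the Cdk4 level there is uncertain; in untreated libraries Tspan31 had 2866 to 4721 counts against 16556 to 22091 of Cdk4.

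Cdk6 (ENSMUSG00000040274.11, chromosome 5, 3341485 to 3531008), which overlaps Cdk4 in function, was at 181, 236, 149 and 170 CPM in untreated and at 104, 79.1, 105, 77.2 and 22.0 CPM in TBI libraries. IgG RIT libraries had 34.1, 29.8 and 21.2 CPM and CD45 RIT libraries 27.5 and 3.42 CPM. All treated libraries lay below all untreated ones. Within a library, Cdk6 made up 5.87 to 7.72% of the summed Cdk4 and Cdk6 level per kilobase in untreated, 2.08 to 4.10% in TBI, 1.75 to 2.95% in IgG RIT and 0.363 and 3.75% in CD45 RIT libraries. This share does not depend on the scaling between libraries, and it was lower in every treated than in every untreated library. It was described after the values were seen and was not tested.

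The INK4 inhibitors did not move as a block. Cdkn2d (p19Ink4d; ENSMUSG00000096472.2, chromosome 9, 21288410 to 21291407) was at 64.6, 56.2, 104 and 74.2 CPM in untreated libraries. It was at 111, 176, 107, 182 and 606 CPM in TBI, at 724, 704 and 900 CPM in IgG RIT and at 202 and 87.0 CPM in CD45 RIT libraries. All IgG RIT libraries were above all others, and TBI replicate 6 came closest to them. Cdkn2c (p18Ink4c; ENSMUSG00000028551.14, chromosome 4, 109660876 to 109667189) followed a like order, with 71.1, 38.3, 62.1 and 61.0 CPM in untreated and 79.7, 104, 93.1, 92.3 and 192 CPM in TBI libraries. It was at 292, 273 and 276 CPM in IgG RIT and at 89.6 and 107 CPM in CD45 RIT libraries, so every treated library exceeded every untreated one.

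Cdkn2b (p15Ink4b; ENSMUSG00000073802.5, chromosome 4, 89306299 to 89311039), a known target of TGF-beta signalling, behaved differently from both. It had 0, 6, 0 and 12 counts in untreated, 11, 13, 9, 12 and 33 counts in TBI, 0, 0 and 1 count in IgG RIT and 122 and 1510 counts in CD45 RIT libraries. In CPM the CD45 RIT libraries were at 7.44 and 72.7, the TBI libraries at 0.389 to 2.37 and the untreated libraries at 0 to 0.416. Cdkn2a (ENSMUSG00000044303.6, chromosome 4, 89274471 to 89294653), which encodes both p16Ink4a and p19Arf from different first exons, had 0, 0, 0 and 1 count in untreated, 3, 3, 3, 2 and 2 counts in TBI and 0 counts in all 5 RIT libraries. All TBI libraries lay above all others, but no library exceeded 3 counts, used here as the detection floor. The gene was not tested, and no change is read from values this low. Counts per gene do not separate the p16Ink4a and p19Arf transcripts.

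Cdkn1b (p27Kip1; ENSMUSG00000003031.14, chromosome 6, 134920401 to 134925513), which holds cyclin E-CDK2 complexes in resting cells, was at 4.66, 7.57, 6.68 and 5.09 CPM in untreated libraries. It was at 5.10, 9.03, 5.92, 9.66 and 21.4 CPM in TBI and at 40.0, 21.4 and 27.9 CPM in IgG RIT libraries. The CD45 RIT libraries disagreed, with 23.2 CPM (381 counts) in replicate 1 and 1 count in replicate 2. IgG RIT libraries were above all untreated ones and replicate 6 was the highest of the TBI libraries.

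Among the cyclins, Ccne1 (ENSMUSG00000002068.16, chromosome 7, 38097984 to 38107534), the cyclin E that activates CDK2, was at 161, 150, 165 and 173 CPM in untreated libraries. It was at 356, 334, 353, 326 and 451 CPM in TBI and at 490, 418 and 488 CPM in IgG RIT libraries, all above all untreated ones. CD45 RIT replicate 1 had 91.8 CPM (1506 counts) and replicate 2 had 1 count, both below the untreated range. Ccnd1 (cyclin D1; ENSMUSG00000070348.5, chromosome 7, 144929931 to 144939925) took the opposite order, with 8.75, 10.3, 7.51 and 9.60 CPM in untreated and 4.25, 2.28, 4.53, 3.42 and 2.58 CPM in TBI libraries. It was at 5.21, 0.548 and 1.42 CPM in IgG RIT and at 17.1 and 28.1 CPM in CD45 RIT libraries, which lay above all others. Its exons share 1100 bases, 23.4% of their length, with LTO1 on the other strand, which had 252 to 1138 counts across libraries where Ccnd1 had 11 to 584, so its low counts are uncertain without a stated strand setting.

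Ccnd1 was the least of the D-type cyclins in all 14 libraries. Per kilobase, Ccnd3 made up 76.7 to 85.3% of the summed D-type cyclins in untreated, 84.6 to 97.9% in TBI, 98.4 to 99.2% in IgG RIT and 68.7 and 20.7% in CD45 RIT libraries. Ccnd2 made up 13.4 to 21.2%, 1.85 to 14.6%, 0.798 to 1.40% and 25.4 and 66.3% in the same order. Ccnd1 made up 1.22 to 2.07% in untreated and 5.86 and 13.0% in CD45 RIT libraries. D-type cyclin RNA was thus nearly all Ccnd3 after IgG RIT and mixed after CD45 RIT.

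**Figure D3:**
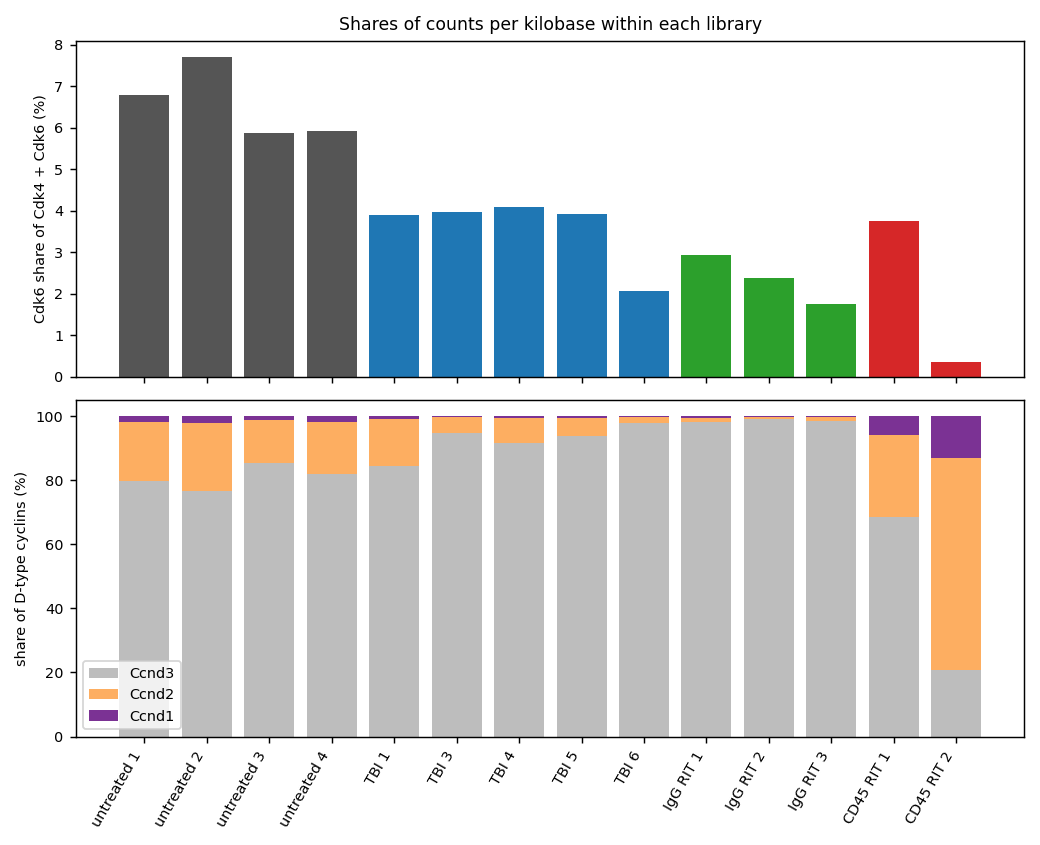
Shares within each library of levels per kilobase, with bars for the 14 libraries: above, Cdk6 as percent of Cdk4 plus Cdk6; below, the 3 D-type cyclins as percent of their sum. Cdk6 falls from 5.87 to 7.72% in untreated to at most 4.10% in every treated library, and Ccnd3 ranges from 98.4 to 99.2% in IgG RIT to 20.7% in CD45 RIT replicate 2.

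The changes were then tested across 21509 genes with edgeR's quasi-likelihood test. Each contrast's p-values were adjusted over all these genes (Benjamini-Hochberg), and a gene was called at an adjusted p under 0.05. The 3 contrasts against untreated share the same 4 control libraries.

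After IgG RIT, 2 INK4 inhibitors and Cdk2 rose and both D-cyclin kinases fell. The log2 fold change of Cdkn2d was 3.38 (SE 0.57, adjusted p 0.00377). That of Cdkn2c was 2.27 with an SE of 0.30 (adjusted p 0.00184), and that of Cdk2 was 0.97 with an SE of 0.21 (adjusted p 0.00994). Cdk6 changed by -2.70 (SE 0.65, adjusted p 0.0161) and Cdk4 by -1.14 (SE 0.26, adjusted p 0.0122). These 5 of 9 tested members were called, 3 higher and 2 lower, where 16.4% of all genes were called, 5.75% higher and 10.7% lower. Groups did not overlap for 8 of the 9, 5 higher and 3 lower, where this held for 43.1% of all genes, 15.6% higher and 27.4% lower. The median over the 9 was 0.97, and -0.42 over all genes tested. Ccnd1 (-1.92, adjusted p 0.0581), Cdkn1b (2.31, adjusted p 0.141), Ccne1 (1.52, adjusted p 0.307) and Cdkn2b (-2.73, adjusted p 0.319) did not pass. Without scaling factors Cdk2 changed by 0.45 and was not called (adjusted p 0.0961). The call of Cdk6 was lost without any 1 IgG RIT library (adjusted p 0.0506, 0.0562 and 0.0579 without replicates 1, 2 and 3), and that of Cdk4 without replicate 1 (adjusted p 0.0513).

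The spread in this fit is shared with the CD45 RIT libraries, which differ from each other. With that group left out, an alternative chosen after seeing the data, 8 of 9 members were called after IgG RIT, where 37.1% of all genes were; without CD45 RIT replicate 1 or 2 alone there were also 8, where 31.2% and 30.2% were. The added calls were Ccne1 (1.72, adjusted p 0.000213), Cdkn1b (2.51, adjusted p 0.00213) and Ccnd1 (-1.73, adjusted p 0.0378). In IgG RIT libraries the erythroid markers summed to 168985 to 192599 CPM, against at most 15393 CPM in untreated libraries, and proliferation genes to at least 13905 against at most 5784 CPM; their part in these changes was not tested.

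After TBI, 0 of 9 members were called, where 4.31% of all genes were called, 0.921% higher and 3.38% lower. DESeq2 called 3, where it called 11.8% of all genes. The log2 fold changes were 1.66 for Cdkn2d (SE 0.50, adjusted p 0.0860), 0.95 for Cdkn2c (SE 0.26, adjusted p 0.0632), 0.50 for Cdk2 (SE 0.19, adjusted p 0.173), 1.17 for Ccne1 (SE 0.90, adjusted p 0.575) and -1.25 for Cdk6 (SE 0.51, adjusted p 0.214). Ccnd1 was at -1.40 (adjusted p 0.168), Cdk4 at -0.40 (adjusted p 0.381), Cdkn1b at 0.77 (adjusted p 0.761) and Cdkn2b at 2.39 (adjusted p 0.312). Groups did not overlap for 6 of the 9, 4 higher and 2 lower, where this held for 19.1% of all genes, 6.34% higher and 12.8% lower. The 6 were Cdkn2c, Cdkn2d, Cdk2 and Ccne1 above and Cdk6 and Ccnd1 below the untreated range.

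With the CD45 RIT group left out, 5 members were called after TBI, where 15.6% of all genes were: Ccne1 (1.31, adjusted p 0.000469), Cdk2 (0.63, adjusted p 0.0158), Cdkn2c (1.10, adjusted p 0.0243) and Cdkn2d (1.85, adjusted p 0.0304) higher and Cdk6 (-1.14, adjusted p 0.0333) lower. Leaving out CD45 RIT replicate 1 or replicate 2 alone also gave 5, where 11.3% and 11.8% of all genes were called. With only the TBI and untreated groups fitted 6 were called, where 17.5% of all genes were. TBI replicate 6 carried part of the size. Without it the changes were 0.95 for Cdkn2d, 0.67 for Cdkn2c, 0.40 for Cdk2, 1.08 for Ccne1 and -1.01 for Cdk6, and 0 members were called.

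**Figure D4:**
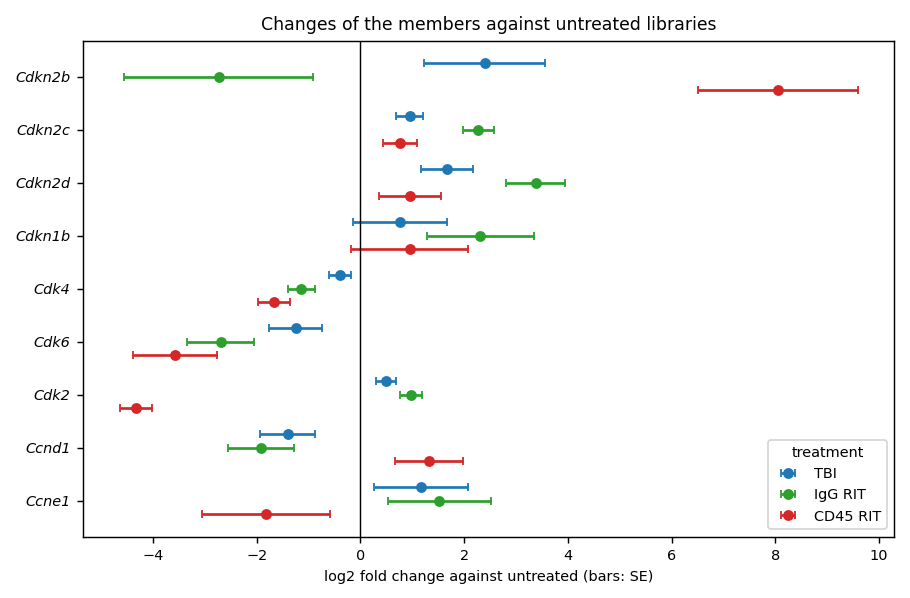
Log2 fold change against untreated of 9 members after TBI, IgG RIT and CD45 RIT, with bars for the standard error; all 3 contrasts share the untreated libraries. Cdk6 lies at -1.25, -2.70 and -3.57 after TBI, IgG RIT and CD45 RIT, and Cdk2 lies at 0.50 and 0.97 after TBI and IgG RIT and at -4.33 after CD45 RIT.

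After CD45 RIT, the kinases were low together and Cdkn2b was high. The log2 fold changes against untreated were -4.33 for Cdk2, -3.57 for Cdk6 (SE 0.81), -1.66 for Cdk4 (SE 0.31) and -1.82 for Ccne1 (SE 1.24), and 8.05 for Cdkn2b (SE 1.53), 1.32 for Ccnd1 (SE 0.65), 0.95 for Cdkn1b (SE 1.13), 0.95 for Cdkn2d (SE 0.60) and 0.76 for Cdkn2c (SE 0.32). Of the 9 members 4 were past the threshold, Cdkn2b higher and the 3 kinases lower, where 33.1% of all genes were, 14.5% higher and 18.6% lower. Groups did not overlap for 7, where this held for 47.3% of all genes. Since this contrast chose the set, nothing is read from these counts. Without CD45 RIT replicate 1 the value of Cdkn1b turned to -6.83 and that of Ccne1 became -11.59, since replicate 2 had 1 count of each. Without replicate 2 the Cdkn2b value was 5.60. Both CD45 RIT libraries had stromal marker sums of at least 59087 CPM, where untreated libraries had at most 6793 CPM, and the lowest sums of general blood cell markers; the part of these in the values was not tested.

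CD45 RIT was compared with IgG RIT, which gives the same activity without a cell target. The members called were Cdkn2b and Ccnd1, which were higher, and Cdkn2c and Cdkn2d, which were lower after CD45 RIT, besides Cdk2, which is a description here. Cdkn2b had 1 count in all IgG RIT libraries together and 1632 in CD45 RIT, a ratio of 2470 per scaled library size (exact 95% interval 443 to 97800, for counting error only; adjusted p 0.00168). Replicate 2 held 1510 of these counts; from replicate 1 alone, with 122, the ratio was 419 (interval 73.9 to 16700.0). Ccnd1 was higher by 3.24 (SE 0.73, adjusted p 0.00460), Cdkn2c changed by -1.51 (SE 0.37, adjusted p 0.00740) and Cdkn2d by -2.42 (SE 0.72, adjusted p 0.0197). With Cdk2 this made 5 of 9, 2 higher and 3 lower, where 37.7% of all genes were called, 20.2% higher and 17.5% lower. Groups did not overlap for 7, where this held for 51.3% of all genes. Cdk2, chosen on these libraries, is among the members counted, so nothing is read from the counts of this contrast. Ccne1 (-3.34, adjusted p 0.0736), Cdk4 (-0.52, adjusted p 0.188), Cdk6 (-0.88, adjusted p 0.352) and Cdkn1b (-1.36, adjusted p 0.418) did not pass. The Cdkn2d call was lost without CD45 RIT replicate 2 (adjusted p 0.103) and the Ccnd1 call when only these 2 groups were fitted (adjusted p 0.136). Without CD45 RIT replicate 1, 8 of 9 were called, where 51.2% of all genes were.

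Against TBI, CD45 RIT libraries were higher in Cdkn2b by 5.66 (SE 1.27, adjusted p 0.00426) and in Ccnd1 by 2.72 (SE 0.61, adjusted p 0.00407). Cdk4 changed by -1.26 (SE 0.29, adjusted p 0.00515) and Cdk6 by -2.33 (SE 0.74, adjusted p 0.0261), although TBI replicate 6, at 22.0 CPM of Cdk6, lay below CD45 RIT replicate 1. With Cdk2, 5 of 9 members were past the threshold, 2 higher and 3 lower, where 38.6% of all genes were, 19.6% higher and 19.0% lower. Groups did not overlap for 5, where this held for 45.8% of all genes. Here too Cdk2 is among the members counted, and nothing is read from the counts of this contrast. Ccne1 (-2.99, adjusted p 0.0874), Cdkn2d (-0.71, adjusted p 0.372), Cdkn2c (-0.19, adjusted p 0.655) and Cdkn1b (0.19, adjusted p 0.902) did not pass; the Cdkn1b value was -0.36 without scaling factors. Without CD45 RIT replicate 2, Cdkn2b (adjusted p 0.121) and Cdk6 (adjusted p 0.0575) were no longer called, and when only these 2 groups were fitted Cdk6 was not (adjusted p 0.108). With the replicate number as a block, 3 members were called, where 17.5% of all genes were.

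IgG RIT and TBI, compared directly, differed in 0 of 9 members by edgeR, where 0.242% of all genes were called, 0.0697% higher and 0.172% lower. DESeq2 called 3, where it called 10.8% of all genes. Groups did not overlap for 4, where this held for 16.8% of all genes. The largest estimates were -5.12 for Cdkn2b (adjusted p 0.159), 1.71 for Cdkn2d (SE 0.51, adjusted p 0.120), 1.54 for Cdkn1b (adjusted p 0.406), -1.45 for Cdk6 (adjusted p 0.223) and 1.32 for Cdkn2c (SE 0.27, adjusted p 0.0653). Cdkn2b had 9 to 33 counts in every TBI library and at most 1 in any IgG RIT library, a ratio of 36.2 in TBI over IgG RIT (exact 95% interval 6.30 to 1450.0, for counting error only). Without TBI replicate 6, which held 33 of the 78 TBI counts, it was 23.6 (interval 4.02 to 951). Without TBI replicate 6, Cdkn2d (2.43, adjusted p 0.00217) and Cdkn2c (1.60, adjusted p 0.00154) were higher and Cdk4 (-0.90, adjusted p 0.00589) was lower after IgG RIT, 3 of 9 where 9.44% of all genes were called. With the CD45 RIT group left out 5 were called, where 12.6% of all genes were; without CD45 RIT replicate 1 or 2 alone 5 and 3 were, where 9.08% and 8.05% of all genes were. With only these 2 groups fitted 1 was called, where 4.72% of all genes were, and with the replicate block 1, where 0.321% were.

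Other genes of the G1 pathway were taken from 4 lists of 71 genes in all: partner cyclins, inhibitors and CDK-activating kinase; regulators of CDK2; retinoblastoma and E2F proteins; and genes upstream of the inhibitors. Of these, 69 were tested. After TBI 4 rose and 0 fell, and after IgG RIT 13 rose and 7 fell, against 4.31% and 16.4% of all genes called. Genes were named among those called whose groups did not overlap and whose log2 CPM averaged 1 or more. Within these limits, the largest rises after IgG RIT were Cdc25b, a phosphatase that activates CDKs (3.19, SE 0.53, adjusted p 0.00356), E2f2, a transcription factor of S phase entry (3.09, SE 0.74, adjusted p 0.0160), and Tfdp2, a dimer partner of E2F proteins (2.53, SE 0.49, adjusted p 0.00622). The largest falls within the same limits were Ccnd2, cyclin D2 (-3.07, SE 0.48, adjusted p 0.00282), Myc (-2.81, SE 0.51, adjusted p 0.00509) and Bmi1, a Polycomb protein that represses Cdkn2a (-2.33, SE 0.44, adjusted p 0.00551). Mycn, a MYC family gene under the level limit and named after its values were seen, went from 354 to 503 counts in untreated to at most 1 count in IgG RIT libraries (adjusted p 0.00473). After TBI, Cdc25b (2.28, SE 0.48, adjusted p 0.0210), the S phase cyclin Ccna2 (1.24, SE 0.24, adjusted p 0.0148) and Rb1, the retinoblastoma gene (1.23, SE 0.31, adjusted p 0.0439), rose.

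By list, the 18 retinoblastoma and E2F genes had 4 rises and 0 falls after IgG RIT, where 5.75% of all genes rose and 10.7% fell, and 1 rise after TBI, where 0.921% rose. The 15 regulators of CDK2 had 4 rises and 0 falls after IgG RIT and 1 rise after TBI. The 25 tested genes upstream of the inhibitors had 1 rise and 6 falls after IgG RIT and 0 calls after TBI, where 4.31% of all genes were called. Of the 11 tested partner cyclins and inhibitors, 4 rose and 1 fell after IgG RIT and 2 rose after TBI. IgG RIT against TBI gave 0 calls among all 69 genes by edgeR, where 0.242% of all genes were called.

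The remaining CIP/KIP inhibitors were high after CD45 RIT. Cdkn1a, the p53 target p21, was at 26.1 to 39.6 CPM in untreated, 26.7 to 115 CPM in TBI, 31.3 to 45.2 CPM in IgG RIT and 551 and 935 CPM in CD45 RIT libraries. Against IgG RIT it was higher by 4.24 (SE 0.52, adjusted p 8.6e-05) and against TBI by 3.74 (SE 0.42, adjusted p 3.27e-05). Cdkn1c, the imprinted inhibitor p57, was at 4.71 to 13.2 CPM in untreated, 0.415 to 1.72 CPM in TBI, 0 to 3.73 CPM in IgG RIT and 175 and 214 CPM in CD45 RIT libraries. It was higher by 7.13 against IgG RIT (SE 1.31, adjusted p 0.00129) and by 7.43 against TBI (SE 1.06, adjusted p 0.000188). Neither passed after TBI (Cdkn1a adjusted p 0.270, Cdkn1c 0.0807) or IgG RIT (0.648 and 0.103) against untreated.

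In CD45 RIT against IgG RIT, 20 of the 69 pathway genes were higher and 15 lower, where 37.7% of all genes were called, and against TBI 16 were higher and 17 lower, where 38.6% were. Skp2, the F-box protein that marks p27 for degradation, changed by -5.34 (SE 0.89, adjusted p 0.00066) against IgG RIT and by -5.42 (SE 0.87, adjusted p 0.000458) against TBI. It had 2 and 42 counts in the CD45 RIT libraries, the lower under the floor of 3. Ccna2, another partner of CDK2, changed by -3.16 against IgG RIT with an SE of 0.37 (adjusted p 6.62e-05) and by -2.48 against TBI (SE 0.34, adjusted p 0.000154). E2f1 was lower than after IgG RIT (-3.45, SE 1.28, adjusted p 0.0495) and Wee1, a kinase that inhibits CDKs, lower than after TBI (-3.11, SE 0.94, adjusted p 0.0211). For both genes the CD45 RIT libraries disagreed, with 1 and 639 counts of E2f1 and 5 and 205 counts of Wee1. Id1, a target of BMP signalling, was higher by 6.40 with an SE of 1.27 (adjusted p 0.00216) than after IgG RIT and by 6.29 (SE 1.02, adjusted p 0.000471) than after TBI, Id3 by 5.42 against IgG RIT (SE 0.56, adjusted p 2.98e-05) and Tbx2, a T-box repressor of Cdkn2a, by 4.23 against TBI (SE 0.86, adjusted p 0.00232).

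Against untreated, where the set was chosen, 12 of the 69 pathway genes were past the threshold as higher and 17 as lower in CD45 RIT, where 33.1% of all genes were called. Within the limits given above, the largest were Cdkn1c (4.57), Cdkn1a (4.54) and Id1 (4.51) among the higher and Skp2 (-5.11), Wee1 (-3.21) and the Polycomb partner Kdm2b (-2.44) among the lower. Outside them, Mycn was at 0 in both CD45 RIT libraries and at 10.6 to 17.4 CPM in untreated ones, at least 80.8-fold lower by the floor of 3 counts per library. The CD45 RIT libraries differed in Kdm2b, with 22 and 213 counts, and in Skp2 and Wee1 as given above.

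The 4 genes whose pattern lay closest to that of Cdk2 were Kntc1, a kinetochore protein, Cetn4, a centrin, Chd1, a chromatin remodeller, and Lnx1, a ubiquitin ligase. The measure was the root-mean-square difference of log2 CPM, centred on the mean over the 14 libraries, among 10308 candidate genes. It was 0.32 for Kntc1, 0.40 for Cetn4 and 0.45 for both Chd1 and Lnx1. Kntc1 was at 34.5 to 54.7 CPM in untreated and 1.15 to 4.88 CPM in CD45 RIT libraries, and Chd1 at 43.3 to 57.9 and 1.92 to 4.21 CPM. Cetn4 at 1.57 to 4.19 CPM and Lnx1 at 2.63 to 4.28 CPM in untreated libraries each had 0 and 2 counts in the CD45 RIT libraries, under the floor, so their likeness to Cdk2 there depends on the prior count. The nearest member was Cdk4, at a distance of 1.54. The 4 genes were picked as the closest of 10308, so nothing about the members is read from their larger distances. The pattern is dominated by the 2 CD45 RIT libraries, on which Cdk2 was chosen.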

How the data were processed

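Per the labels' protocols, RNA was extracted with a Qiagen micro kit, amplified with SMART-Seq v4 and made into libraries with Nextera XT, which carry no molecular identifiers, so floors cover counting error only. The authors deposited raw counts per gene, with a gene length. Per the submitters' processing notes, STAR 2.7.7a, FastQC 0.11.9 and edgeR 3.36.0 were used; the notes list the human build hg38, whereas 54587 of 55335 gene identifiers and all their coordinates match GENCODE M21 on mouse GRCm38, used here. The counter and strand setting are not given in the sources used here. The deposited lengths equal the exon length of each member.

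The counts were tested with edgeR 4.0.16 under R 4.3.3: filterByExpr by group (minimum count 10, minimum total 15; 21509 genes), TMM factors, 1 coefficient per group over 14 libraries, robust glmQLFit and glmQLFTest, 6 contrasts. SE is the log2 fold change over the square root of F. DESeq2 1.42.0 was an alternative. Closest replicates differed by a chi-square of 17.3 per gene and 0 pairs were identical, so each library counted once.

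Members and lists were chosen with earlier results of these data known. Named by rule were all 10 members, Cdkn1a and Cdkn1c, the 4 genes most like Cdk2, and the sort markers Cdh5, Pecam1 and Ptprc. In each contrast, up to 3 called pathway genes per direction were added whose groups did not overlap and whose log2 CPM averaged 1 or more. Outside these rules, Mycn and single endothelial markers were named after their values were seen. Tspan31 and LTO1 were named as overlapping genes, and Mki67 and Pcna as examples of a list. Marker lists not described above (neutrophil, megakaryocyte, B lineage, macrophage) summed in CD45 RIT libraries to 7.44 to 18.9, 50.0 to 258, 504 to 537 and 38.4 to 90.5 CPM, against 8953 to 10518, 258 to 327, 489 to 1669 and 40.4 to 56.5 CPM in untreated, 105 to 1024, 40.6 to 103, 254 to 2282 and 10.8 to 14.5 CPM in TBI and 750 to 956, 74.3 to 131, 157 to 551 and 6.77 to 19.7 CPM in IgG RIT libraries. Endothelial markers summed to 133 to 166, 43.5 to 110.0, 36.5 to 57.6 and 152 to 471 CPM in untreated, TBI, IgG RIT and CD45 RIT libraries.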

Additional observations from a re-analysis of the deposited data

Results flagged for a closer look

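In 20 sets of untreated or TBI values of a member, 7 had a library whose gap to its neighbours passed Dixon's 95% critical value. Chance flags about 1 in 20 separate sets. These sets share the same libraries, so the number flagged cannot be set against that rate. TBI replicate 6 was the high library in 6 of them. It had 606 CPM of Cdkn2d, where the remaining 4 had 107 to 182 CPM, 192 CPM of Cdkn2c (others 79.7 to 104), 204 CPM of Cdk2 (146 to 162), 451 CPM of Ccne1 (326 to 356), 21.4 CPM of Cdkn1b (5.10 to 9.66) and 2.37 CPM of Cdkn2b (0.389 to 0.450). Its library number in the labels is 10, and those of the other TBI libraries are 1, 5, 8 and 9. The untreated libraries are 2, 3, 6 and 7, the IgG RIT libraries 11, 12 and 13 and the CD45 RIT libraries 15 and 16. Every RIT library thus has a higher number than every other library, so library number and RIT cannot be told apart. The erythroid marker sum of TBI replicate 6 was 224373 CPM, where no other TBI library exceeded 45580 CPM. The part of that sum in these values was not tested. The remaining one was Cdkn2a at 0.0347 CPM in untreated replicate 4, which is 1 count where the other 3 libraries had 0. With the others at 0, any count would have been flagged.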

How the results depend on the processing

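Counts of called members moved under several alternatives. TBI against untreated went from 0 to 3 with DESeq2, 6 with only the 2 groups fitted and 5 with the CD45 RIT group left out; leaving out 1 library gave 0 to 5. IgG RIT against untreated went from 5 to 8 with the CD45 RIT group left out and ranged from 4 to 8 over single left-out libraries. IgG RIT against TBI went from 0 to 3 with DESeq2, 1 with the replicate block, 1 with only the 2 groups fitted and 5 with the CD45 RIT group left out, and from 0 to 5 over single left-out libraries. For CD45 RIT the leave-one-out ranges were 5 to 8 against IgG RIT, 4 to 7 against TBI and 4 to 6 against untreated. Leaving out a CD45 RIT library keeps 1 in that group, assumed to vary like the others. Every member count of a CD45 RIT contrast includes Cdk2, which was chosen on those libraries, so nothing is read from it. The replicate block changed the count of CD45 RIT against TBI from 5 to 3, where Cdkn2b (adjusted p 0.0740) and Ccnd1 (0.108) were lost. Same-numbered libraries shared only a number: their deviations correlated at -0.0896 to 0.139, above 0.1 in 1 of 13 pairs, and 3 of 12 libraries correlated best with their own number. Of 1106 member values under alternatives, 10 had the opposite sign, in 6 of the results; 8 of these were called under neither setting. The remaining ones were both Cdkn1b in CD45 RIT: against untreated it went from 0.95 to -6.83 without CD45 RIT replicate 1, and against TBI from 0.19 to -7.59 without CD45 RIT replicate 1 and 1.00 without replicate 2. Of the 1106 values, 1003 stayed on their side of the threshold or within the spread of replicates. Another 72 newly passed, 12 no longer passed, 18 moved by more than the spread and 1 was reversed. The reversed value was that of Cdkn1b against TBI, at -7.59 without CD45 RIT replicate 1. The cause of these shifts was not tested. The median over all genes of IgG RIT against untreated was -0.42 with TMM, -0.21 with RLE and -0.94 without factors, and of CD45 RIT against untreated -0.37, -0.13 and -1.08. Over all genes, TBI against untreated gave 926 calls, 2485 with DESeq2, 3251 with 2 groups, 3096 without the CD45 RIT group and 38 with the replicate block.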
